A study of Arabidopsis thaliana with 3 samples.

Results

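Leaf transcripts of Arabidopsis thaliana plants of 35S:WIN1 line 13 were compared with those of control plants that carried an empty binary vector. These are 2 of the 3 samples of the series, taken by their titles, and the remaining sample, from 35S:WIN1 line 22, was used only to check directions. Per the labels, both WIN1 samples were RNA pooled from leaves of several T2 progeny, in which WIN1 is expressed from the 35S promoter, and the control sample was RNA pooled from leaves of several empty-vector plants. A line descends from 1 transformed plant, so effects of WIN1 and of the insertion site cannot be told apart in line 13 alone. Plant age, accession and growth conditions are not stated in the labels. Each sample was hybridised to 1 Affymetrix Arabidopsis genome array, which reports 1 intensity for each probe set, a group of short probes against 1 transcript. There was 1 array on each side, so no difference below has a replicate or a test, and all are given as sizes.

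WIN1, also called SHINE1, is a transcription factor of the AP2/ERF family that acts in the epidermis. The epidermis of a leaf builds the cuticle, in which a polyester of glycerol and oxygenated fatty acids, cutin, is filled and coated with waxes made from very-long-chain fatty acids. Plants that overexpress WIN1 are known for glossy leaves with more cuticular wax. Genes of acyl chain, glycerol and pectin metabolism, and GDSL-type lipases, which include enzymes that link cutin monomers, are therefore of interest in this comparison.

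The table held 8247 probe sets, with median deposited intensities of 70.2 (line 13), 35.2 (line 22) and 84.1 (control). Scaling to 1 trimmed mean brought the medians to 68.9, 49.4 and 66.3 in the same order. A pseudocount of 18.6 scaled intensity units was added before log2, and the 5773 probe sets whose mean log2 value over line 13 and the control was above the 30th percentile were kept. Of the kept probe sets, 2595 were paired with 1 gene, which made 2475 loci. All arrays came from 1 chip lot and 1 day of scanning. The WIN1 locus, AT1G15360, has no probe set in the annotation used, and the overexpressed gene was therefore not analysed here. The leaf label was checked against photosynthesis genes, which were bright: the light-harvesting gene LHCB4.1 had a scaled intensity of 3191 (line 13), 4469 (line 22) and 3196 (control). OLEO3, a seed oleosin, was at -39.9, 2.47 and -5.91 in the same order, at or near background on every array. It is 1 of 17 matched probe sets of the seed, pollen and flower list, of which 8 were kept. Among those, the MADS-box gene AGL26 was at 398, 305 and 379, so the list as a whole was not at background. No root, trichome or guard cell marker was matched.

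Line 13 and the control were alike over most of the array. The log2 ratio of line 13 over the control had a median of 0.01 and an SD of 0.41 over kept probe sets, and 86.4% of them lay within 0.5 of 0. Of the 5773 kept probe sets, 85 were at least 2-fold higher in line 13 (1.47%) and 73 were at least 2-fold lower (1.26%), together 2.74%. The higher ones made up 53.8% of the 158. The exact 95% binomial interval, 45.7% to 61.8%, covers counting error only and takes the probe sets as independent, though all share the same arrays. It leaves out errors of the arrays and of the scaling. On the deposited values without scaling the split was 47 higher and 165 lower, 22.2% higher, and the median ratio there was -0.27. At 4-fold, 12 probe sets were higher (0.208%) and 9 lower (0.156%). Of the 85 and the 73, 36 and 33 were paired with a gene, which is 1.39% and 1.27% of the kept probe sets with a gene.

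Differences of 2-fold were more frequent among dim probe sets, though not confined to them. The kept probe sets were split into 5 equal bins by brightness, and the central 95% of the ratios ran from -0.995 to 1.004 in the dimmest bin and from -0.52 to 0.59 in the brightest. The dimmest bin held 30 of the 85 higher and 29 of the 73 lower probe sets, the brightest 7 and 5, which is 5.11% of the dimmest bin and 1.04% of the brightest. In 52 of the 85 line 13 reached a scaled intensity of 100, and in 37 of the 73 the control did. In 28 of the 85 the control lay under the pseudocount, and in 28 of the 73 line 13 did, so that the size of those ratios depends strongly on the pseudocount. The dimmer value was at or below 0 in 6 of the 85 and 7 of the 73, and there it added nothing to the ratio. Of the 1073 kept probe sets with an intensity of at least 500 on either array, 12 were at least 2-fold higher in line 13 and 10 were at least 2-fold lower. Over all 5773 kept probe sets these counts were 85 (1.47%) and 73 (1.26%). The brightest of all kept probe sets, 15776_at, which is unnamed here and was picked out after its value was seen, had a scaled intensity of 9286 (line 13), 9875 (line 22) and 3699 (control), a log2 ratio of 1.32 for line 13.

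**Figure D1:**
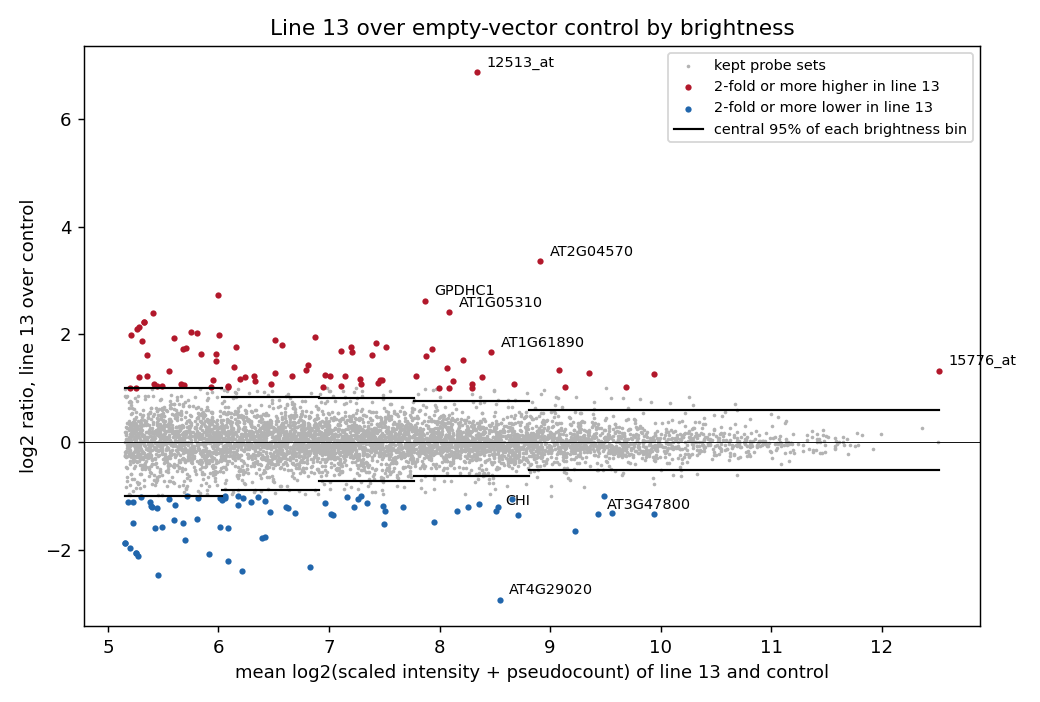
Log2 ratio of line 13 over the control (vertical axis) against the mean log2 of scaled intensity plus pseudocount (horizontal axis) for the 5773 kept probe sets. Red and blue points are the 85 higher and 73 lower by at least 2-fold, and the black lines bound the central 95% of ratios in each of 5 brightness bins, which narrow from -0.995 and 1.004 on the left to -0.52 and 0.59 on the right.

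With the pseudocount of 18.6, the highest ratio of a named gene in line 13 belonged to AT2G04570, which encodes a GDSL-type lipase. Its scaled intensity was 1521 (line 13), 586 (line 22) and 132 (control), a log2 ratio of 3.35 for line 13, 11.5-fold as a plain ratio of intensities. It was high on both WIN1 arrays, and higher in line 13 than in line 22. With the pseudocount lowered to the 5th percentile its ratio was 3.48, and those of AT2G34360 and AT2G29800, both below 0 in the control, lay above it at 4.18 and 4.17. AT2G42990, another gene of the GDSL family, had 110 (line 13), 138 (line 22) and 13.7 (control), a log2 ratio of 1.99. The control value of AT2G42990 lay under the pseudocount, so the size of this ratio depends much on that setting. With the pseudocount at the 5th percentile the ratio was 2.69.

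GPDHC1 (AT2G41540) encodes a cytosolic glycerol-3-phosphate dehydrogenase, an enzyme that makes the glycerol backbone used for glycerolipids. It had 562 (line 13), 613 (line 22) and 75.6 (control), a log2 ratio of 2.63, 7.44-fold as a plain ratio. The WIN1 arrays lay close together and both were far above the control. AT2G39980, an acyltransferase of the BAHD family, whose members move acyl groups from coenzyme A, had 245 (line 13), 321 (line 22) and 64.7 (control), a log2 ratio of 1.66.

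AT1G05310, a pectinesterase, the kind of enzyme that removes methyl groups from wall pectin, had 609 (line 13), 948 (line 22) and 99.6 (control). Its log2 ratio was 2.41, and here line 22 was the higher of the WIN1 arrays. AT2G34930, a gene of the leucine-rich repeat disease resistance family, had 158 and 107 in lines 13 and 22 against 28.9 in the control, a log2 ratio of 1.89. AT1G61890, a member of the MATE family of membrane transporters, had 612 (line 13), 260 (line 22) and 181 (control). Against the control that made log2 ratios of 1.66 for line 13 and 0.49 for line 22, so that line 22 lay much closer to the control than line 13 did.

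The other named genes among the 15 highest were dimmer or had less to rest on. AT4G15140 (90.8 (line 13), 91.0 (line 22) and 8.04 (control)), AT1G03010 (76.4, 59.7 and 6.20), AT1G24230 (76.5, 50.8 and 9.95) and AT4G24130 (82.5, 189.7 and 13.8) were above the pseudocount on both WIN1 arrays and under it in the control. In line 13 their log2 ratios were between 1.64 and 2.04. AT2G34360 and AT2G29800 were at 68.1 and 68.0 in line 13, but the values of both in line 22 and in the control were below 0, so line 22 gave no direction. LCR72, a plant defensin gene also called PDF2.6, had 57.0 in line 13 against 2.06 in the control, and in line 22 it was at -13.1. AT4G15260, of the UDP-glycosyltransferase superfamily, had 319 in line 13 and 80.9 in the control, a log2 ratio of 1.76, whereas line 22 was at 1.28, below the control.

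Among the 15 genes with the lowest ratios, AT4G29020, which encodes a glycine-rich protein, had the lowest one. It had a scaled intensity of 116 (line 13), 87.4 (line 22) and 1012 (control), a log2 ratio of -2.93, the control being 8.70-fold the brighter. Both WIN1 arrays were low. With the pseudocount lowered to the 5th percentile its ratio was -3.08, and AT4G02940 (-3.87) and ZIP9 (-3.75), both below 0 in line 13, lay under it. AT3G47800, a member of the galactose mutarotase-like family, had 415 (line 13), 184 (line 22) and 1079.6 (control), a log2 ratio of -1.34. It was the only other one of the 15 with a control intensity above 500.

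AT4G01410, AT3G09010, AT4G01200 and AT2G36970 were measured above the pseudocount in both line 13 and the control. AT4G01410 had 26.7 (line 13), 12.1 (line 22) and 138 (control), and AT3G09010 had 20.5 (line 13), -8.90 (line 22) and 99.0 (control). AT2G36970, of the UDP-glycosyltransferase superfamily, had 37.6 and 38.4 against 120.1, a log2 ratio of -1.30. AT4G01200 had 27.9 (line 13), 104 (line 22) and 139 (control), so that line 22 lay nearer the control.

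In the other 9 genes of the 15 lowest, line 13 lay under the pseudocount, and in AT4G02940 and ZIP9 it was below 0. ZIP9, a zinc transporter gene, was at -39.8 (line 13), 22.0 (line 22) and 49.7 (control). NRPE3B, a subunit gene of the plant RNA polymerase that acts in RNA-directed DNA methylation, had 10.6 (line 13), 70.0 (line 22) and 105 (control). SAG29, which encodes the sugar transporter SWEET15 and is a senescence-associated gene, had 7.44 (line 13), 51.9 (line 22) and 59.3 (control), so that line 22 lay close to the control. AT3G57680 and AT4G11350 were lower in line 13 (15.6 and 6.06) than in the control (73.2 and 56.1) but not in line 22 (122 and 57.8). AT4G02940, AT2G44330, AT4G30940 and AT4G24480 were low in both lines, with 13.2 or less in line 22 against control values between 54.4 and 78.6.

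**Figure D2:**
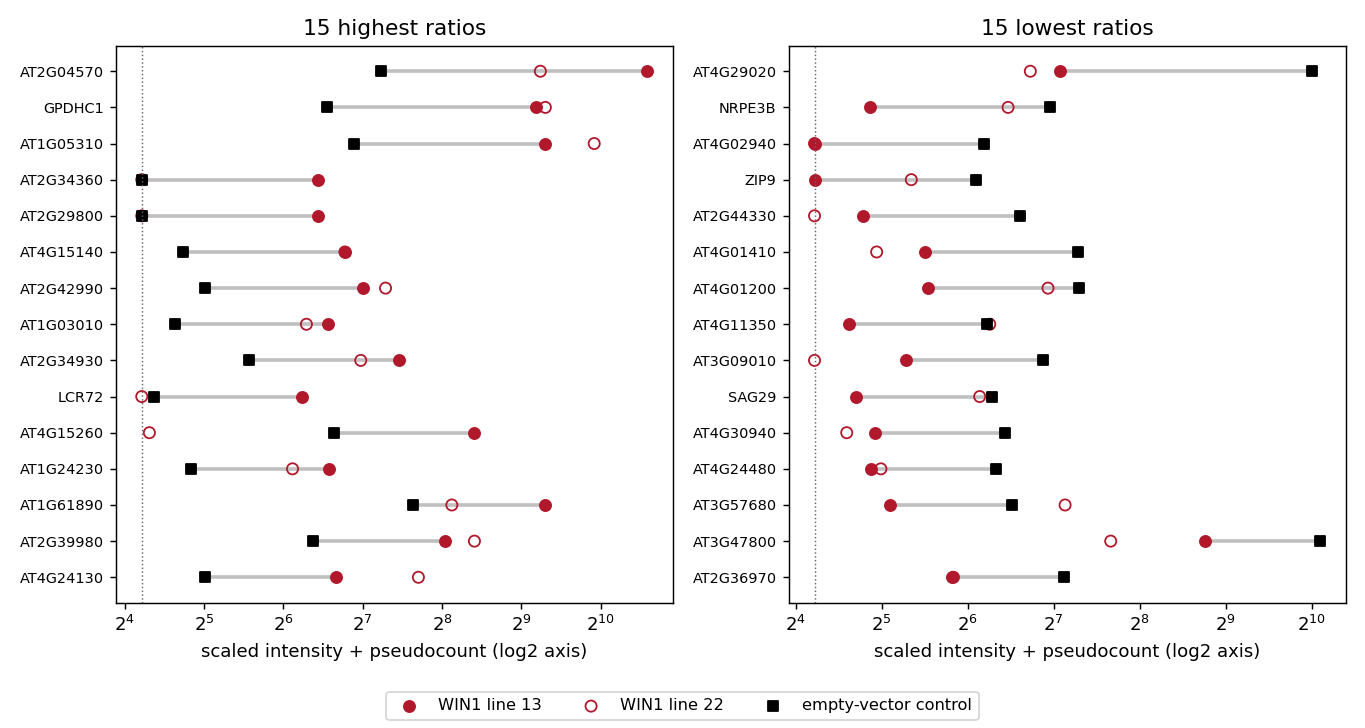
Scaled intensity plus pseudocount on a log2 axis for the 15 named genes with the highest (left) and the lowest (right) log2 ratio of line 13 over the control. Filled circles are line 13, open circles line 22 and squares the control, the grey bar joins line 13 to the control, values below 0 are drawn on the dotted line at the pseudocount of 18.6, and an open circle can be hidden under another symbol. Line 22 lies left of the control for AT4G15260 (1.28 against 80.9), on the opposite side from line 13.

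The line 22 array shares its control with line 13, so its ratios are no independent support for those of line 13. Line 22 was above the control in 68 of the 85 probe sets that were higher in line 13, beside 43.7% of all kept probe sets. It was below the control in 60 of the 73 that were lower in line 13, beside 56.3% of all kept. At 2-fold, 44 of the 85 were also higher in line 22 (6.84% of all kept probe sets) and 40 of the 73 also lower (17.1% of all kept). A high or low error of the shared control array would move both lines the same way, and its part in these counts was not tested. Line 22 was at least 2-fold opposite to line 13 in 1 of the 85 and 2 of the 73.

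Unnamed probe sets held 49 of the 85 higher and 40 of the 73 lower ones. The highest ratio on the array belonged to one of them, 12513_at, with 3483 (line 13), 2367 (line 22) and 11.5 (control). The next, 13408_s_at, had 145 and 46.7 against 6.18. The lowest were 20107_at, with -8.58 (line 13), -16.1 (line 22) and 84.4 (control), and 17322_at, with 13.7 and -48.6 against 151. In each of these the dimmer side lay under the pseudocount.

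The remaining 21 named genes that were at least 2-fold higher had log2 ratios up to 1.36, and line 22 was above the control in 14 of them. VPS2.1, a subunit gene of the ESCRT-III complex that sorts membrane proteins for degradation, was the brightest, with 1004 (line 13), 643 (line 22) and 400.3 (control), a log2 ratio of 1.29. GTR1, a glucosinolate transporter gene, had 136 (line 13), 88.6 (line 22) and 47.7 (control), a log2 ratio of 1.22. WRKY53, a transcription factor gene linked to senescence and defence, had 438 and 236 against 198, a log2 ratio of 1.07 for line 13 and 0.23 for line 22. All 3 arrays read these genes well above the pseudocount, and line 22 lay between line 13 and the control in each. AT2G27080 had the highest ratio of the 21, with 411 (line 13), 198 (line 22) and 148 (control).

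The remaining 18 that were at least 2-fold lower had log2 ratios down to -1.27, and line 22 was below the control in 16 of them. CHI (AT2G43570), annotated as a putative chitinase, had 216 (line 13), 118 (line 22) and 548 (control), a log2 ratio of -1.27. The methionine sulfoxide reductase gene MSRB6 had 45.9 and -21.2 against 133, a log2 ratio of -1.23. MYC4, a bHLH transcription factor gene of the jasmonate response, had 81.6 and 9.65 against 185, a log2 ratio of -1.03. HISN5B, a histidine synthesis gene, had 91.4 and 63.7 against 203, a log2 ratio of -1.01. Line 22 was below line 13 in all of these.

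Genes read by several probe sets give the only internal measure of error for line 13. The 108 genes with more than 1 kept probe set had 228 probe sets, and ratios within a gene had a pooled SD of 0.22 on the log2 scale (1.12 for line 22). This SD covers errors of the probes, and not differences between plants or RNA samples, and some probe sets of a gene share probes. In 100 of the 108 genes the probe sets differed by less than 0.5. In no gene were all kept probe sets at least 2-fold apart from the control, and in 1 gene, AT3G47380, 1 of them was. That is 1 of the 228 probe sets, beside 2.74% of all kept probe sets. No gene of the 15 highest or the 15 lowest has a second probe set, so the SD of 0.22 rests on genes with smaller ratios.

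Of the 108 genes, 6, picked out by this measure after their values were seen, had a mean ratio of at least 0.5 either way. COR47, a dehydrin gene of the cold and drought response, was read by probe sets with 587 and 1615 in line 13 against 305 and 901 in the control, log2 ratios of 0.90 and 0.83. In line 22 the same probe sets gave 114 and 1432, on opposite sides of the control. AT4G13710, of the pectate lyase family, had log2 ratios of 0.53 and 0.95, and its line 22 ratios for the same probe sets were 0.60 and 0.08. AT4G20860, of the berberine bridge enzyme family, had 0.49 and 0.86 in line 13, but 0.63 and -1.97 in line 22, on opposite sides of the control. The lower 3 were AT3G47380, a gene of the pectin methylesterase inhibitor family, AT2G15830 and AT4G24780. AT3G47380 had 52.6 and 33.3 in line 13 against 107 and 88.6 in the control, log2 ratios of -0.82 and -1.05, and both probe sets were lower still in line 22, at 13.7 and 9.18. AT2G15830 had ratios of -0.72 and -0.48 in line 13 and of -0.54 and -0.47 in line 22. AT4G24780, also of the pectate lyase family, had 953 and 288 in line 13 against 1373 and 414 in the control, log2 ratios of -0.52 and -0.50, and in line 22 it was at 130 and 159.

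**Figure D3:**
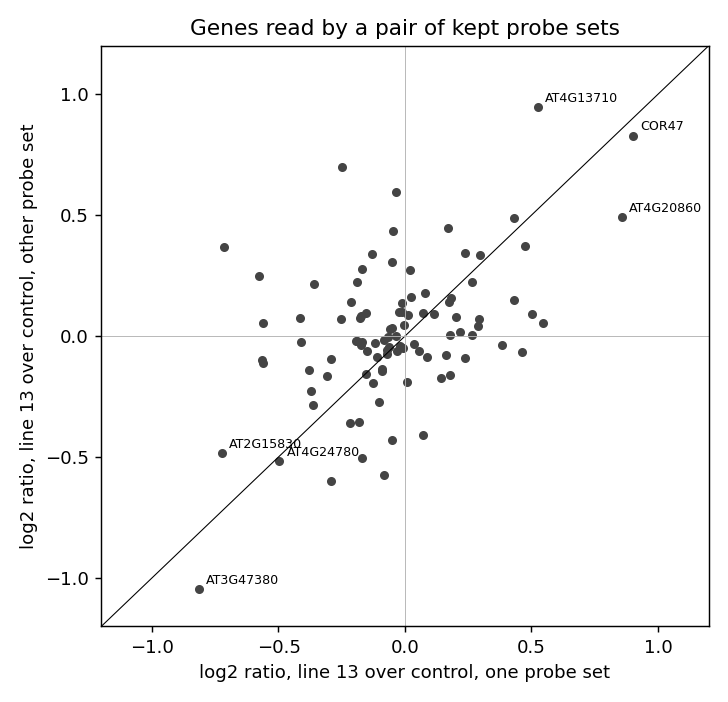
Log2 ratio of line 13 over the control from one kept probe set (horizontal axis) against the other (vertical axis) for the 98 genes with exactly 2 kept probe sets, with the line of equality. COR47 lies at 0.90 and 0.83, close to the line, and most genes lie within 0.5 of 0 on both axes.

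The 30 gene lists reached 98 loci, since RefSeq gives many loci of this array no descriptive name, and the GDSL, pectinesterase, acyltransferase and glycosyltransferase genes above that have only a locus name are not in them. The lists held 106 kept probe sets. Of these, 3 were at least 2-fold higher (GPDHC1, WRKY53 and LCR72) and 2 were at least 2-fold lower (CHI and SAG29), beside 1.47% and 1.26% of all kept probe sets. WRKY53 fell short of 2-fold on the deposited values without scaling, with a log2 ratio of 0.79. With the pseudocount raised to the 40th percentile, WRKY53 (0.96), LCR72 (0.95) and SAG29 (-0.85) all fell short of it, while GPDHC1 (2.22) and CHI (-1.15) did not. No locus was matched for 7 lists, among them lipid transfer, heat shock and ribosomal proteins.

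Of the listed genes for wax and for fatty acid supply, 2 were kept and neither was 2-fold apart, beside 2.74% of all kept probe sets. CER26 (AT4G13840), which acts in the elongation of very-long-chain fatty acids, had 258 (line 13), 93.1 (line 22) and 403 (control), a log2 ratio of -0.61. FATB, the thioesterase that releases saturated fatty acids from the plastid, had 199.8 (line 13), 84.8 (line 22) and 144.5 (control), a log2 ratio of 0.42. CER26 was lower in both lines, and FATB was above the control in line 13 alone. FATA, the companion thioesterase for oleate, was below 0 on all 3 arrays. AT1G24360, a plastid ketoacyl-ACP reductase gene that the lists miss for want of a RefSeq name, was at 1487 (line 13), 2293 (line 22) and 1373 (control), a log2 ratio of 0.11. The cutin list matched GPDHC1 and no other gene. DREB2C, the only gene that the AP2/ERF list matched, and MYBC1, the only one that the MYB list matched, had log2 ratios of 0.12 and -0.14.

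Among wall genes, none of the 14 kept probe sets of the list for expansins, xyloglucan-modifying enzymes and family 9 endoglucanases was 2-fold apart. Over all kept probe sets 2.74% were, a share at which a list of 14 can well hold none. The median log2 ratio was -0.13, beside 0.01 over all kept probe sets, and 11 of the 14 were below 0. Most of these ratios were small, and the excess below 0 was not tested. The endoglucanase gene GH9C3 was closest to the threshold, with 13.2 (line 13), 8.23 (line 22) and 44.5 (control), a log2 ratio of -0.99. It passed 2-fold without scaling (-1.25), with the pseudocount at the 5th percentile (-1.49) and with a floor (-1.26). XEG113, which the list caught by its name and which is none of these enzymes, followed at -0.41, with its other probe set at 0.07. The expansin gene EXPA15 was at -0.38. XTH27, listed as EXGT-A3, an enzyme gene that cuts and rejoins xyloglucan, had 1933 (line 13), 1553 (line 22) and 1985 (control), a log2 ratio of -0.04. Of the TBL family, whose members include acetyltransferases of wall polysaccharides, 8 probe sets were kept, with ratios from -0.94 for AT2G31110 (TBL40) to 0.80 for TBL26, and TBL39 at -0.81. Without scaling and with a floor AT2G31110 (-1.24 and -1.06) and TBL39 (-1.07 and -1.29) passed 2-fold, and with the pseudocount at the 5th percentile so did TBL26 (1.27) beside AT2G31110 (-1.03) and TBL39 (-1.14). The 3 kept probe sets of named pectinesterases had ratios of 0.09 and 0.50 for ATPMEPCRB and 0.28 for ATPMEPCRD, which places none of them near the ratio of AT1G05310.

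Most photosynthesis genes lay close to equality in line 13 and the control. Their 12 probe sets centred on a median log2 ratio of -0.01, beside 0.01 over all kept probe sets. None was 2-fold apart, beside 2.74% of all kept probe sets, a share at which a list of 12 can well hold none. RCA, rubisco activase, had 2138 (line 13), 3800.0 (line 22) and 2174 (control), a log2 ratio of -0.02. PRK, phosphoribulokinase of the Calvin cycle, had 1197 (line 13), 1892 (line 22) and 1125 (control), a log2 ratio of 0.09. Line 22 was the highest of the 3 arrays in both genes. The antenna gene LHCB4.3 was the farthest from 0 in this list, with 60.2 (line 13), 43.5 (line 22) and 134 (control), a log2 ratio of -0.96, which passed 2-fold without scaling (-1.25), with the pseudocount at the 5th percentile (-1.11) and with a floor (-1.16). LHB1B2, another antenna gene, was read by 2 probe sets with 2008 and 233 (line 13), 4278 and 679 (line 22) and 2581 and 274 (control), log2 ratios of -0.36 and -0.22.

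Cold and drought genes had a median log2 ratio of 0.29 over 11 kept probe sets, beside 0.01 over all kept probe sets. Of the 11, 8 were above 0, which was not tested, and none was 2-fold apart, beside 2.74% of all kept probe sets. On the deposited values without scaling, which shifted the ratios of all kept probe sets by a median of -0.28, this median was -0.02. Beside COR47, COR15B had 2418 (line 13), 1160.4 (line 22) and 1692 (control), a log2 ratio of 0.51. AT2G46140, a dimmer member, had 41.7 (line 13), -3.07 (line 22) and 21.2 (control), a log2 ratio of 0.60. KIN2 was read by 2 probe sets with ratios of -0.08 and -0.02. The list therefore held genes as near to 0 as the photosynthesis genes as well as COR47.

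Of the defence lists, the 9 kept probe sets of the salicylate-linked list had a median of 0.20, with WRKY53 higher, CHI lower and the other 7 between -0.14 and 0.52, the value of WRKY20. In the jasmonate and defensin list LCR72 was 2-fold apart, and the defensin genes LCR69 and LCR68 had ratios of 0.17 and -0.05, and the thionin gene THI2.2 -0.17. The 12 kept UGT genes, which encode enzymes that attach sugars to small molecules, had a median of 0.02 and ranged from -0.44 for UGT84A4 to 0.68 for UGT71C2, with SGT at 0.53, and UGT71C2 passed 2-fold with the pseudocount at the 5th percentile (1.14). The 3 cytochrome P450 genes, all of the CYP71B group, were between -0.46 (CYP71B29) and -0.20 (CYP71B6), and the 3 glutathione transferase genes between -0.27 (GSTU18) and 0.00 (GSTF3). The 3 auxin-response genes had a median of -0.06, with IAA15 the lowest at -0.67 (-1.04 with a floor). The 3 histone genes had a median of -0.09, with HIS4 the lowest at -0.26. The 5 actin and tubulin genes had a median of -0.22, with ACT12 the lowest at -0.65 (-1.11 with the pseudocount at the 5th percentile) and TUB6 at -0.30. The seed, pollen and flower list had 8 kept probe sets, all of AGAMOUS-like MADS-box genes, with a median of 0.13 and a range from -0.71 for AGL33 (-1.13 with the pseudocount at the 5th percentile) to 0.33 for AGL30, with AGL19 at -0.44.

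**Figure D4:**
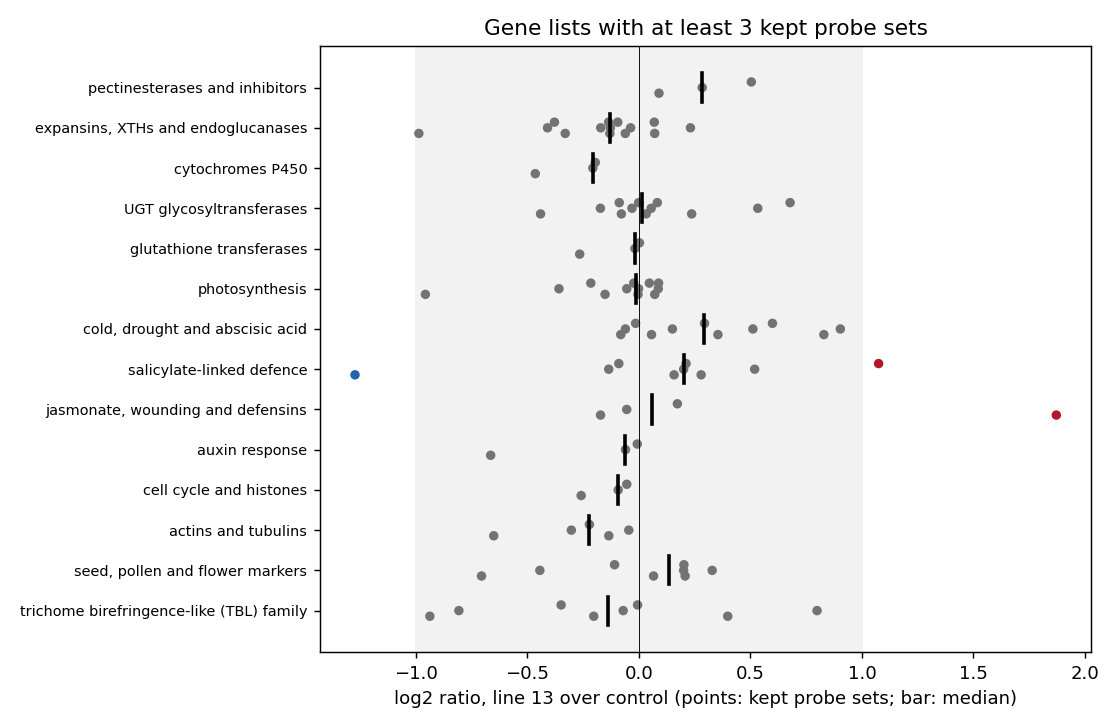
Log2 ratio of line 13 over the control for each kept probe set (points) of the 14 lists with at least 3 kept probe sets, with the list median as a black bar. The grey band is less than 2-fold, WRKY53 (1.07) and LCR72 (1.87) lie to its right and CHI (-1.27) to its left, and the photosynthesis median is at -0.01.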

How the data were processed

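Arrays were assigned to line 13, line 22 and the empty-vector control by their titles. The authors deposited linear intensities, 1 for each probe set, with between 13.6% and 16.0% of an array at or below 0, and the method that summarised the probes is not given in the sources used here. Arrays were scaled to the same trimmed mean of 176 units, leaving out 2% of values at either end, with factors of 0.981 (line 13), 1.40 (line 22) and 0.788 (control). Negative values were replaced by 0. A pseudocount of 18.6, the 20th percentile of the scaled values above 0, was added before log2, which shrinks ratios of dim probe sets. Ratios also spread most in the dimmest bin (SD of 0.51), so an extreme ratio there can be too large as well as too small. With 1 array on each side, precision is limited by the number of arrays and no test was run. Computations used Python 3.11.15 with numpy 2.4.6, pandas 2.3.3 and scipy 1.17.1, and the procedure was tested on simulated data.

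Probe sets took their genes from GEO's platform annotation, brought to RefSeq names of assembly TAIR10.1 through gene IDs: 3794 were paired with 1 gene (3784 of these with a locus), 70 with several and 4383 with none. No coordinates are printed, since the files name no build. Named genes are, by ratio, the top 15 and bottom 15 of the kept probe sets that have 1 gene, the 2 highest and 2 lowest unnamed ones, list members at least 2-fold apart, and up to 3 members of each list with at least 3 kept probe sets. All other genes named were chosen after their values were seen: those with a gene symbol and AT2G27080 among the remaining 2-fold ones, those with several probe sets, leaf and seed markers, other members of the lists, and AT1G24360. The members and lists were chosen with earlier results of these data known, and name patterns that caught unintended genes (such as thionin within methionine) were corrected after the values were seen. XEG113, caught by its name in the list for expansins and endoglucanases, was left in. Roles are background knowledge.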

Additional observations from a re-analysis of the deposited data

Results flagged for a closer look

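AT4G15260, of the UDP-glycosyltransferase superfamily, differed from the control in opposite directions in the lines. Its log2 ratio to the control was 1.76 in line 13 and -2.32 in line 22, with scaled intensities of 319 and 1.28 against 80.9 in the control. The difference was not tested, and a single probe set and 1 array for each line stand behind it. Ratios of line 22 are also the less certain, with a pooled SD within a gene of 1.12 against 0.22 for line 13. Of all kept probe sets, 17.1% were at least 2-fold lower in line 22.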

How the results depend on the processing

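No paired analysis was possible because each group has 1 array and no result comes from a test. All settings were planned. The 85 higher and 73 lower probe sets became 47 and 165 when the deposited values were left unscaled (22.2% higher), 146 and 130 with the pseudocount lowered to the 5th percentile, 37 and 29 with it raised to the 40th, 157 and 133 with a floor, 47 and 31 with the filter raised to the 50th, 287 and 263 at 1.5-fold, 34 and 19 at 3-fold (64.2% higher), and 52 and 37 when the brighter array had to reach 100. Without a filter 115 were lower and 115 higher. With common-median scaling they were 70 and 80, after quantile normalization 81 and 75, and with the filter taken over all 3 arrays 86 and 72, of which 78 and 65 were shared with the 85 and 73. Filters, fold thresholds and pseudocounts change these counts by construction. The 30 named genes with the highest and lowest ratios kept their direction under each scaling and pseudocount and with a floor. With the raised pseudocount, only 12 of the 15 highest and 7 of the 15 lowest were still 2-fold apart. A filter leaves ratios unchanged, so it could not alter a direction. The filter at the 50th percentile kept 4123 probe sets and left out the whole dimmest bin, to which many of the 30 belong.

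Leaving out the scaling moved the median of all kept probe sets by -0.28 and all 14 list medians with it, to 0.024 for pectinesterases, -0.40 for expansins and endoglucanases, -0.49 for cytochromes P450, -0.25 for UGT genes, -0.31 for glutathione transferases, -0.33 for photosynthesis, -0.019 for cold and drought, -0.086 for salicylate-linked defence, -0.25 for jasmonate and defensins, -0.36 for auxin response, -0.38 for histones, -0.53 for actins and tubulins, -0.16 for the AGAMOUS-like genes and -0.43 for the TBL family. The medians moved by less than the 0.22 SD within a gene under the other 8 settings that apply to them. That SD is of single probe sets and not of a list median, and most of the medians are smaller than it. A median near 0 could therefore change sign within it. For jasmonate and defensins it went from 0.059 to -0.057 with the pseudocount at the 5th percentile. For UGT genes it went from 0.015 to -0.032 with common-median scaling.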

Other observations

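The counts of named genes at least 2-fold apart varied between chromosomes, as read from their locus names. Over all kept probe sets with a gene, 1.39% were higher and 1.27% were lower. On chromosome 2, 19 of 970 kept probe sets were higher in line 13 (1.96%) and 9 were lower (0.928%). On chromosome 4, 5 of 810 were higher (0.617%) and 13 were lower (1.60%). Chromosome 1 had 11 higher (1.93%) and 4 lower (0.703%) of 569. Chromosome 3 had 1 (0.730%) and 5 (3.65%) of 137, and chromosome 5 had 0 and 2 (1.83%) of 109. The median log2 ratio was between -0.01 and 0.04 on all 5 chromosomes. The counts are small and no test was run on them.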
